A study of Mus musculus with 12 samples.

Results

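The 10 genes described here encode readers, writers and erasers of N6-methyladenosine (m6A), a methyl mark on adenosines of mRNA, together with MEIOC, the partner of the reader YTHDC2 at meiotic entry. They were taken by name, with no threshold on a measured value, from the gene rows *Ythdc1*, *Ythdc2*, *Ythdf1*, *Ythdf2*, *Ythdf3*, *Mettl3*, *Mettl14*, *Alkbh5*, *Fto* and *Meioc*. The choice was made with earlier results of these data known. All 10 of 10 were found among 20981 genes, 9 of them by their current symbol and *Meioc* under its older name Gm1564. RNA was sequenced from testes of C57BL/6 *Mael*-/- mice aged 3 months, in 4 groups of 3 libraries, 12 in all, which the series describes as biological replicates. TOTAL is the testis extract in 10 mM EDTA, and INPUT is the pool of sucrose gradient fractions 5 to 8 of that extract. IP is the RNA pulled from INPUT with beads carrying an antibody to ORF1p, the RNA-binding protein encoded by the retrotransposon LINE-1 (L1), and BO (Beads Only) is the RNA held by beads without the antibody. Every group lacks *Mael*, a gene of the piRNA pathway that silences transposons in male germ cells. No group with intact *Mael* was among these libraries, so the values describe how RNA was divided between fractions of mutant testes and not an effect of the mutation.

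The m6A mark is laid on nascent mRNA by a complex in which METTL3 is the catalytic subunit and METTL14 holds the RNA. FTO and ALKBH5 remove it, and proteins with a YTH domain bind it. YTHDC1 is the nuclear reader, YTHDF1, YTHDF2 and YTHDF3 are cytoplasmic readers, and YTHDC2 is a reader with a helicase domain. YTHDC2 and MEIOC bind each other, and male germ cells of mice that lack either gene start meiosis but fail to carry it through. What the comparisons ask is how much RNA of each gene came down with ORF1p relative to bare beads (IP vs. BO), to the pooled fractions (IP vs. INPUT) and to the extract (IP vs. TOTAL).

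The gene values are the authors' means of DESeq2-normalized counts per group, in 3 tables that each pair IP with 1 other group and were normalized separately. Because the 3 tables share the IP libraries, whole reads of each IP library could be solved from the 3 IP means, and all 19151 gene rows above 0 were reproduced in all 3 tables within 0.001. The IP libraries held 21387454, 20549345 and 19754089 gene reads. They are called A, B and C in that order, which carries no link to the replicate numbers of the labels. For BO, INPUT and TOTAL each table gives 1 mean, so the spread between their libraries could not be computed and no test was run here. The test columns that the authors added to the tables were not used. The ranges below cover the 3 IP libraries only. A mean in BO, INPUT or TOTAL rested on at least 279 reads, the fewest being those of *Fto* in BO.

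The deleted gene was at or near 0 in every group, with a *Mael* mean of 0.65 in TOTAL, 0 in INPUT, 0.50 in BO and 0 reads in each IP library. In the separate repeat table, RNA of L1Md_A, a young L1 subfamily, lay between 56029 and 95645 normalized counts in the IP libraries and between 14131 and 27258 in the others. BO replicate 3 stood apart, with LSU rRNA taking 52.1% of its repeat signal against 3.18% and 3.25% in BO replicates 1 and 2. This library is part of every BO mean below and could not be left out of it, so its part in the BO values was not tested. The defining markers of spermatocytes were present in the extract, with 8 of 8 at a mean of at least 10 in TOTAL and a median of 2369. Markers of spermatids had a median of 17.6, with 6 of 8 at 10 or more and a range from 2.93 to 231. Markers of spermatogonia (7 of 7), Sertoli cells (6 of 6) and Leydig cells (5 of 5) were also present, so these are mixed samples in which fewer cells of a type and less RNA per cell cannot be told apart.

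In the extract the 10 RNAs spanned 17.5-fold per length. Levels per length are mean normalized counts per kb of the longest annotated transcript, set on the scale of the table of IP and INPUT. *Meioc* was highest in TOTAL, at 1287 per kb, and *Mettl14* lowest, at 73.6. After *Meioc* came the cytoplasmic readers *Ythdf1* at 764 and *Ythdf3* at 681, the eraser *Alkbh5* at 573, and *Ythdf2* and *Ythdc2* at 463 and 451. *Ythdc1* at 218, *Mettl3* at 186 and *Fto* at 144 closed the order above *Mettl14*. This order held for the longest transcript only. Per kb of the median transcript *Meioc* (3409) was followed by *Ythdc2* (1159), *Ythdf2* (1096), *Ythdf1* (1071), *Alkbh5* (1033) and *Ythdf3* (856). Then came *Mettl3* (432), *Ythdc1* (421), *Mettl14* (193) and *Fto* (190). *Meioc* was highest with either length, and the same 4 genes were the lowest. With no spread for TOTAL, neighbours such as *Ythdf2* and *Ythdc2* cannot be ranked beyond their means.

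In the ORF1p pulldown *Meioc* was again highest, at 9228 per kb, and *Ythdc2* was second at 3627 per kb. Both places were the same per kb of the median transcript. *Ythdf2* followed at 1474 and *Alkbh5* at 1452, whereas *Ythdf1* stood at 945 and *Ythdf3* at 852. *Ythdc1* (757), *Mettl3* (204), *Fto* (126) and *Mettl14* (94.2) were the 4 lowest in IP as in TOTAL. Per kb of the median transcript *Ythdc1* (1462) lay above *Ythdf1* (1324) and *Ythdf3* (1070) in IP, and *Fto* (166) below *Mettl14* (247). On the beads without antibody *Ythdf3* had 2824 per kb and *Meioc* 2688, an order that the median transcript reversed, with 3547 for *Ythdf3* and 7123 for *Meioc*.

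**Figure D1:**
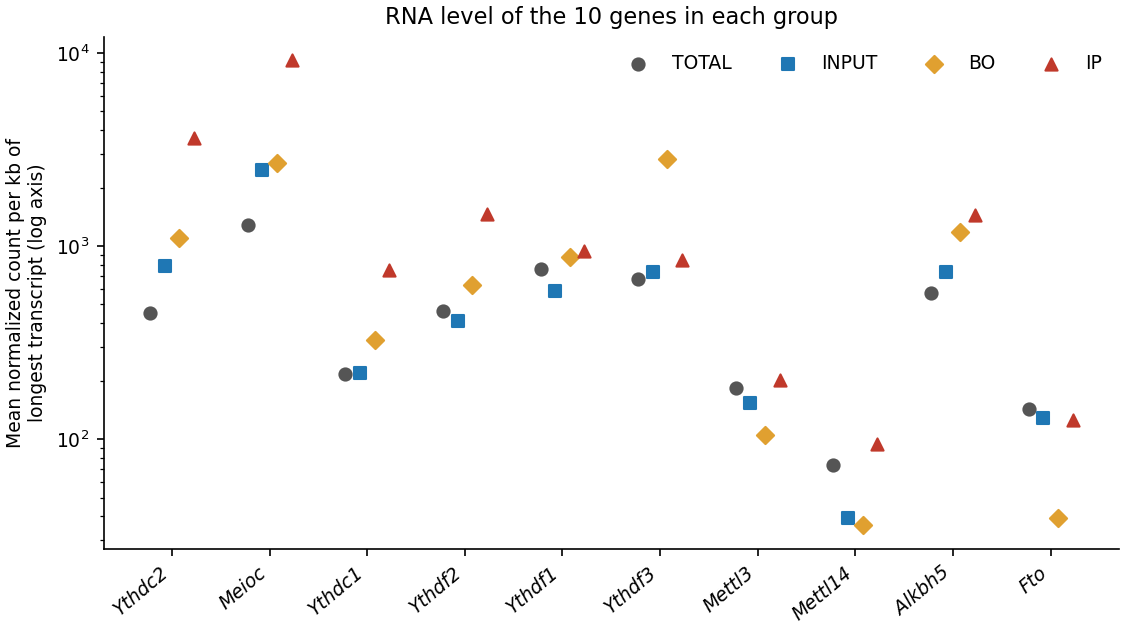
Mean normalized count per kb of the longest transcript (log axis) of the 10 genes in TOTAL, INPUT, BO and IP, each symbol a group mean over 3 libraries on the scale of the table of IP and INPUT. IP lies well above the other groups for *Ythdc2* (3627 per kb against 451 to 1099) and *Meioc* (9228 against 1287 to 2688), and for *Ythdf3* the BO level (2824) is the highest of the 4 groups.

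Ratios below are log2((IP mean + 1)/(other mean + 1)), over genes whose 2 group means average at least 10, a filter that all 10 genes passed in every comparison. Against INPUT, 5 of 10 genes were higher in IP by over 2-fold (*Ythdc1*, *Ythdc2*, *Ythdf2*, *Mettl14* and *Meioc*), as were 20.5% of the 14400 genes compared. None of the 10 was lower by over 2-fold, as were 14.6% of all genes. Against TOTAL, 5 of 10 were higher by over 2-fold (*Ythdc1*, *Ythdc2*, *Ythdf2*, *Alkbh5* and *Meioc*), beside 20.4% of 14666 genes, and 0 were lower, beside 26.2%. *Ythdc1*, *Ythdc2*, *Ythdf2* and *Meioc* were the 4 genes in both sets.

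Against BO, 6 of 10 were higher by over 2-fold (*Ythdc1*, *Ythdc2*, *Ythdf2*, *Mettl14*, *Fto* and *Meioc*), which stands beside 43.9% of 13634 genes, and *Ythdf3* was lower, as were 11.2% of genes. The scaling of this comparison bears on that count, because the median gene itself had a log2 ratio of 0.81 in IP vs. BO. Measured from the median gene, none of the 10 was higher than 2-fold in IP vs. BO, and the share of all genes past 2-fold became 18.3% higher and 24.1% lower. Against BO, INPUT and TOTAL in turn, the median log2 ratio of the 10 genes was 1.22, 1.12 and 0.85, beside 0.81, 0.15 and -0.03 over all genes. The 3 comparisons share the IP libraries and are not independent of each other.

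**Figure D2:**
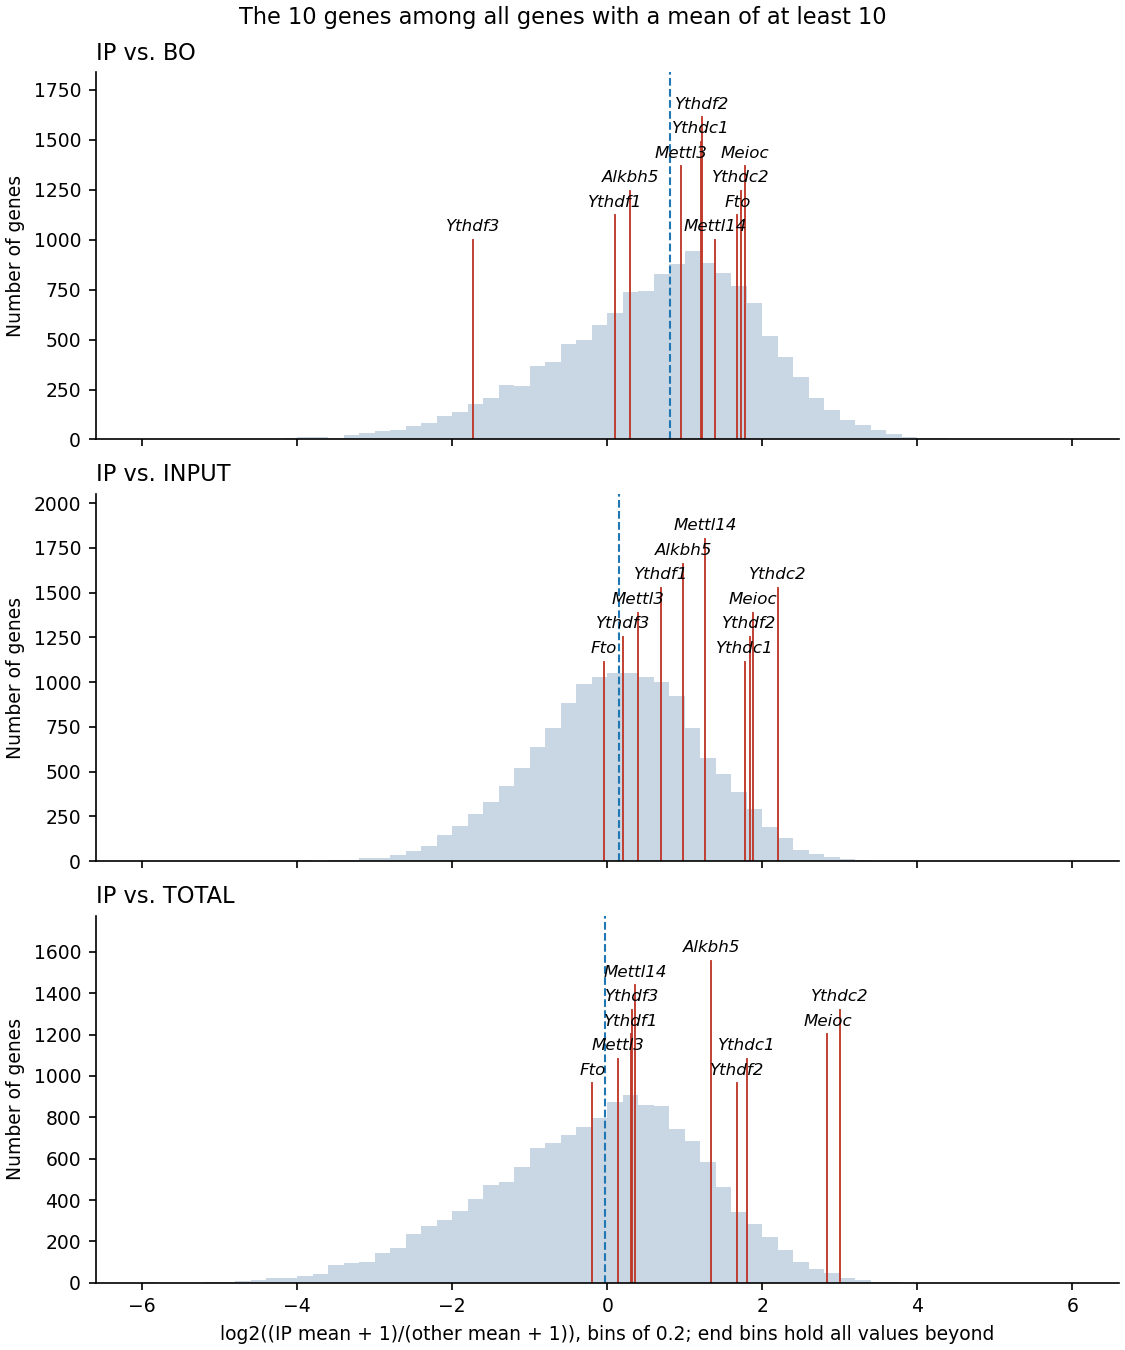
Number of genes by log2 ratio of IP against BO, INPUT and TOTAL (bars, bins of 0.2), with the 10 genes as red lines at their own ratio and the median of all genes as a dashed line. The height of a red line carries no value. *Ythdc2* and *Meioc* lie at the right edge in IP vs. TOTAL (3.01 and 2.84), and *Ythdf3* lies in the left tail in IP vs. BO (-1.73).

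*Ythdc2* had the highest ratio of the 10 genes against both INPUT and TOTAL. The gene lies at chr18:44827746-44889724 on the plus strand (mm10), and its longest transcript has 7215 nt. In the table of IP and INPUT its normalized counts were 23142, 28686 and 26670 in IP libraries A, B and C, and its mean in INPUT was 5687. Its mean was 3243 in the extract, in a table whose scale differs by a factor of 1.004. All 3 IP libraries thus lay several-fold above both means. *Ythdc2* was 4.60-fold higher in IP than in INPUT (log2 ratio 2.20, from 2.02 to 2.33 over the IP libraries), at percentile 98.1 of all genes. It was 8.04-fold higher than in TOTAL (3.01, from 2.81 to 3.18), at percentile 99.7. Against BO, where its mean was 6048 and the IP libraries had 17383, 22107 and 20402 in the scale of that table, it was 3.30-fold higher (1.72, from 1.52 to 1.87). That ratio was 0.91 above the median gene and at percentile 79.1, well inside the range of other genes.

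*Meioc* resembled *Ythdc2* in each comparison. MEIOC is a germ cell protein that binds YTHDC2, and the gene lies at chr11:102663716-102682237 on the plus strand, with a longest transcript of 4573 nt. Its counts were 36424, 45588 and 44588 in IP libraries A, B and C against means of 11423 in INPUT and 5862 in TOTAL. The *Meioc* RNA was 3.69-fold higher in IP than in INPUT (log2 ratio 1.89, from 1.67 to 2.00 over the IP libraries), at percentile 95.7. It was 7.17-fold higher than in TOTAL (2.84, from 2.61 to 2.99), at percentile 99.4. In IP vs. BO, with counts of 27361, 35132 and 34109 against a mean of 9377, it was 3.43-fold higher (1.78, from 1.54 to 1.91), at percentile 80.6. With 110371 reads over the 3 IP libraries *Meioc* was also the most deeply read of the 10, and *Ythdc2* with 68508 the next.

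Both genes were already higher in the pooled fractions than in the extract. INPUT and TOTAL do not share a table, so this ratio was taken through the IP group that both tables hold. *Meioc* was 1.94-fold higher in INPUT than in TOTAL (log2 ratio 0.96, percentile 97.0) and *Ythdc2* was 1.75-fold higher (0.80, percentile 94.0). The other 8 genes lay between -0.91 (*Mettl14*) and 0.36 (*Alkbh5*). None of the 10 was past 2-fold in either direction in INPUT vs. TOTAL, beside 2.3% of 14280 genes higher and 17% lower. This count rested on the scaling, since the median gene was at -0.14. Measured from the median gene, *Meioc* was at 1.10, past 2-fold, *Ythdc2* at 0.95 and *Mettl14* at -0.77. The share of all genes past 2-fold was not computed on that scale. The step from the extract to the fractions and the step from the fractions to the pulldown together make up the ratio of each gene in IP vs. TOTAL.

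Over the 3 log2 ratios, with genes at a mean of at least 100 in all 4 groups, the nearest genes to *Ythdc2* were *Pet2* (Euclidean distance 0.15), *Zfy2* (0.17) and *Urb2* (0.19). Those nearest to *Meioc* were *Zfp473* (0.10), *Tex16* (0.11) and *Zfp541* (0.18). These distances rest on 4 group means among 8106 genes, and the ratios share the IP group, so they describe likeness of pattern only. The distance between *Ythdc2* and *Meioc* themselves was 0.36. *Meioc* was the 9th nearest gene to *Ythdc2*, and *Ythdc2* the 17th nearest to *Meioc*. With all 3 IP libraries *Ythdc1* and *Ythdf2* were closer, at 0.15, with *Ythdf2* the 5th nearest gene to *Ythdc1* and *Ythdc1* the 4th nearest to *Ythdf2*. This closeness rested on IP library B. Without library B, *Ythdc1* had log2 ratios of 0.75, 1.32 and 1.32 against BO, INPUT and TOTAL, and *Ythdf2* had 1.11, 1.73 and 1.54. Distances were not computed without that library.

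Other genes of meiotic entry were more mixed. The list held *Meioc*, *Ythdc2* and 6 others, of which *Meiosin* was not matched. Of the 7 matched genes, 5 were higher in IP by over 2-fold against BO, 3 against INPUT and 4 against TOTAL, and 0 lower. Of all genes 43.9%, 20.5% and 20.4% were higher and 11.2%, 14.6% and 26.2% lower. Under the 3 other scalings the counts higher were 2 to 5, 3 and 3 to 4. The shares of all genes higher were then 18.3% to 34.3%, 9.14% to 16.5% and 9.83% to 21.1%. Up to 1 was lower against BO and up to 2 against TOTAL, beside 15.0% to 24.1% and 25.7% to 38.0% of all genes. As deposited the medians of the 7 matched genes were 1.72, 0.98 and 1.21. These counts and medians include *Ythdc2* and *Meioc*. Of the other matched genes only *Dazl* was past 2-fold against INPUT, beside 20.5% of all genes. *Dazl*, which encodes a germ cell RNA-binding protein, had means of 13894 in TOTAL, 14267 in INPUT and 56880 in IP, and log2 ratios of 2.40 against BO, 2.00 against INPUT and 2.03 against TOTAL. It and the pair *Ythdc2* and *Meioc* were the 3 genes of the list past 2-fold in all 3 comparisons.

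*Rbm46*, whose product is an RNA-binding partner of MEIOC and YTHDC2, had log2 ratios of 0.98 against INPUT and 1.21 against TOTAL but -0.17 against BO. *Stra8*, the retinoic acid-induced regulator of meiotic entry, had 2.07 against BO, 0.79 against INPUT and -0.61 against TOTAL. *Rec8*, which encodes a meiotic cohesin subunit, ran the same way at 1.39, 0.13 and -0.68. Both *Stra8* and *Rec8* were low on bare beads, with BO means of 92.0 and 51.0. *Xrn1*, encoding the 5′ to 3′ exonuclease that binds YTHDC2, stood at -0.37, 0.22 and 0.69. The markers of spermatocytes, fixed as a separate list, were higher by over 2-fold in IP in 8 of 8 cases in each comparison. Their medians were 3.18, 2.51 and 2.52, and 43.9%, 20.5% and 20.4% of all genes were higher against BO, INPUT and TOTAL. Under other scalings 6 to 8 of these markers were higher against INPUT, beside 9.14% to 16.5% of all genes. Markers of spermatogonia, a list that also holds *Stra8*, had medians of -0.27, -0.77 and -0.41. Of the 6 that passed the filter, 2 were higher and 2 lower against BO, beside 43.9% and 11.2% of all genes. Against INPUT and TOTAL 0 of 6 were higher, beside the same 20.5% and 20.4%, and 1 was lower in each, beside 14.6% and 26.2%. Of the spermatid markers 4 passed the filter against TOTAL, with a median of -3.91 and 3 of them lower, beside 26.2% of all genes. In the other comparisons 1 passed it, *Spaca1*, which was higher by over 2-fold against BO (2.10) and INPUT (1.48). Against TOTAL *Spaca1* was at 0.01. Markers of Sertoli cells had medians of 0.07, -1.07 and -1.37 and those of Leydig cells 0.48, -1.60 and -2.56. Of 6 Sertoli markers 0 were higher by over 2-fold in any comparison, and 2, 3 and 4 were lower against BO, INPUT and TOTAL. Of 5 Leydig markers 2, 0 and 0 were higher and 0, 4 and 5 lower. The shares of all genes higher were 43.9%, 20.5% and 20.4%, and lower 11.2%, 14.6% and 26.2%. The part of cell type in the values of the 10 genes was not tested.

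The RNAs of the 3 cytoplasmic readers, close relatives in sequence, differed in their ratios. *Ythdf2*, whose product recruits the CCR4-NOT deadenylase to marked mRNA, was the only one of the 3 past 2-fold higher in IP in any comparison. Its counts were 5049, 6948 and 6267 in IP libraries A, B and C, against means of 1704 in INPUT and 1906 in TOTAL. It was 3.57-fold higher than in INPUT (log2 ratio 1.84, from 1.57 to 2.03, percentile 95.2) and 3.18-fold higher than in TOTAL (1.67, from 1.38 to 1.90, percentile 92.3). Against BO, with counts of 3793, 5355 and 4794 and a BO mean of 1989, it was 2.34-fold higher (1.22, from 0.93 to 1.43), but only 0.41 above the median gene. The IP libraries therefore lay above the mean of each other group, and A was lowest in all 3. The gene lies at chr4:132184912-132212303 on the minus strand.

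*Ythdf1*, at chr2:180904377-180920949 on the minus strand and with the shortest longest transcript of the YTH genes (3184 nt), lay near the means of the other groups. Its product is best known for raising translation of marked mRNA. The IP libraries had 2882, 2874 and 3270 normalized counts, against a mean of 1859 in INPUT, a ratio of 1.62-fold (log2 ratio 0.69, from 0.63 to 0.81). The extract mean was 2423, so that *Ythdf1* stood at 1.23-fold in IP vs. TOTAL (0.30, from 0.22 to 0.40), a ratio that turned to -0.21 with summed gene means. In IP vs. BO the counts of 2165, 2215 and 2501 lay against a BO mean of 2144, a ratio of 1.07-fold. That log2 ratio of 0.10 was below the median gene by 0.71, and its sign was negative under every rescaling of the comparison (-0.71, -0.19 and -0.53).

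*Ythdf3* went the other way in IP vs. BO. On bare beads its mean was 10991, while the IP libraries had 2994, 3492 and 3461, so that all 3 lay far below the BO mean. The ratio was 0.302-fold (log2 ratio -1.73, from -1.88 to -1.65), at percentile 4.87 of all genes. Against INPUT (mean 3772) the IP libraries had 3986, 4531 and 4524, a ratio of 1.15-fold (0.20, from 0.08 to 0.26, percentile 51.9), the position of the median gene. Against TOTAL (mean 3464) the ratio was 1.25-fold (0.32). Both values were negative with summed gene means (-0.33 and -0.20), where the median gene was itself at -0.38 and -0.54. Their sign thus rested on a scaling that moves all genes alike. Measured from the median gene they were 0.05 and 0.35. The mean of *Ythdf3* was thus within 1.25-fold in extract, fractions and IP, and high on the beads alone. Through the shared IP group, *Ythdf3* was 3.82-fold higher in BO than in INPUT (log2 ratio 1.93, percentile 98.3). The gene lies at chr3:16183212-16217037 on the plus strand.

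*Ythdc1*, which encodes the nuclear reader that acts in splicing and export, had high ratios that rested unevenly on the IP libraries. It lies at chr5:86804221-86836659 on the plus strand, and its exons overlap those of *Gm43055* on the same strand, so reads there cannot be split between the pair. The IP libraries had 3005, 7327 and 4003 normalized counts in A, B and C, from 3025, 5823 and 3364 reads. The INPUT mean was 1399 and the TOTAL mean 1371. Library B was thus far above A and C, and the highest IP library stood 2.44-fold over the lowest, against 1.14-fold to 1.49-fold for the other 9 genes.

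Against INPUT *Ythdc1* was 3.42-fold higher (log2 ratio 1.77, from 1.10 to 2.39, percentile 94.5) and against TOTAL 3.50-fold higher (1.80, from 1.11 to 2.45, percentile 93.7). All 3 IP libraries were over 2-fold above both means. In IP vs. BO the counts were 2257, 5646 and 3062 against a mean of 1577, which gave 2.32-fold (1.21, from 0.52 to 1.84). There only library B was past 2-fold, and without it *Ythdc1* dropped under the threshold. Library B was the highest IP library for 9 of the 10 genes in each comparison, and it also had the highest median over all genes, with log2 ratios of 0.05, 0.27 and 0.12 for A, B and C against INPUT.

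By mean normalized count, without regard to length, the writer RNAs and *Fto* were the least abundant of the 10 in each group. The writers differed from each other in their ratios. *Mettl14*, at chr3:123368297-123386108 on the minus strand, had counts of 555, 827 and 652 in IP libraries A, B and C against a mean of 281 in INPUT. It was 2.41-fold higher in IP than in INPUT (log2 ratio 1.27, from 0.98 to 1.55, percentile 86.1), but under 2-fold with summed gene means (0.74) and with upper quartile scaling (0.92). Against BO, where its mean was 197, it was 2.63-fold higher (1.39, from 1.08 to 1.69, percentile 69.2). The extract mean was 528, and the ratio in IP vs. TOTAL was 1.28-fold (0.36, from 0.05 to 0.68, percentile 61.6). *Mettl14* had the lowest INPUT vs. TOTAL ratio of the 10 genes, 0.533-fold (log2 ratio -0.91, percentile 19.5). Scaling to the summed gene means gave -0.16 against TOTAL, where the median gene was itself at -0.54, so this sign rested on the scaling. Measured from the median gene the ratio against TOTAL was 0.39.

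*Mettl3*, at chr14:52294841-52305128 on the minus strand with exons overlapping those of *Tox4* on the opposite strand, stayed within 2-fold in all 3 comparisons. Its IP counts of 409, 466 and 447 compared with a mean of 334 in INPUT (1.32-fold, log2 ratio 0.40, from 0.29 to 0.48). The mean was 399 in TOTAL (1.10-fold, 0.14). In IP vs. BO the counts of 307, 359 and 342 against a mean of 173 gave 1.94-fold (0.95, from 0.82 to 1.05), 0.14 above the median gene. *Mettl3* lay at percentiles 54.6, 59.0 and 54.9 of all genes against BO, INPUT and TOTAL, so it was close to the median gene each time, and its log2 ratios against INPUT and TOTAL were -0.13 and -0.38 with summed gene means.

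The whole writer complex was described with a list of 8 genes. Against INPUT, 5 of 8 were higher by over 2-fold and 0 lower, with a median log2 ratio of 1.11. Against TOTAL the count was 3 of 8 (median 0.87), and against BO 2 of 8 higher with 1 lower (median 0.43). Over all genes the shares higher were 20.5% against INPUT, 20.4% against TOTAL and 43.9% against BO, and the shares lower 14.6%, 26.2% and 11.2%. The count higher against BO was thus below the share of all genes. The count against INPUT was 4 measured from the median gene, beside 16.5% of all genes. It was 0 with summed gene means (beside 9.14%) or upper quartile scaling (beside 12.2%), so it rested on the scaling. Under the same 3 scalings the count higher against TOTAL was 1 to 3, beside 9.83% to 21.1% of all genes. Against BO 0 to 1 were higher, beside 18.3% to 34.3%, and 1 to 2 lower, beside 15.0% to 24.1%. The highest ratio against INPUT was that of *Zc3h13* (1.32), which encodes a subunit that keeps the complex in the nucleus. The lowest was that of *Rbm15* (-0.03), which encodes an RNA-binding adaptor of the complex. On bare beads *Rbm15* had a mean of 4509, and its log2 ratio in IP vs. BO was -1.33.

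The eraser RNAs separated by comparison. *Alkbh5*, which encodes the nuclear demethylase that mouse spermatogenesis requires, lies at chr11:60536381-60558512 on the plus strand. Its IP counts of 7662, 9052 and 8248 compared with means of 4209 in INPUT and 3271 in TOTAL. It was 1.98-fold higher than in INPUT (log2 ratio 0.98, from 0.86 to 1.10, percentile 79.0) and 2.53-fold higher than in TOTAL (1.34, from 1.20 to 1.50, percentile 87.2). With summed gene means the ratio against TOTAL was 0.82, under 2-fold. Against INPUT it lay at the threshold itself, with library B above 2-fold and A and C below. Against BO the counts of 5755, 6976 and 6310 lay just over a mean of 5160, a ratio of 1.23-fold (0.30, from 0.16 to 0.43). Measured from the median gene that ratio was -0.51, and it was -0.33 with upper quartile scaling and 0.01 with summed gene means.

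*Fto* showed the reverse. FTO demethylates m6A and the related cap mark m6Am, and the gene lies at chr8:91313525-91668439 on the plus strand with exons that overlap *4831440D22Rik* and *Gm45427* on the opposite strand. The IP libraries had 551, 692 and 535 normalized counts against means of 611 in INPUT and 675 in TOTAL. The groups could not be separated, since library B lay above both means and A and C below both. The ratios were 0.970-fold in IP vs. INPUT (log2 ratio -0.04, from -0.19 to 0.18) and 0.876-fold in IP vs. TOTAL (-0.19, from -0.37 to 0.07). In IP vs. BO, *Fto* was 3.22-fold higher (1.68, from 1.54 to 1.92, percentile 77.9), with counts of 414, 533 and 410 against a BO mean of 141. *Fto* was the lowest of the 10 in BO vs. INPUT, at 0.303-fold (log2 ratio -1.72, percentile 13.8).

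**Figure D3:**
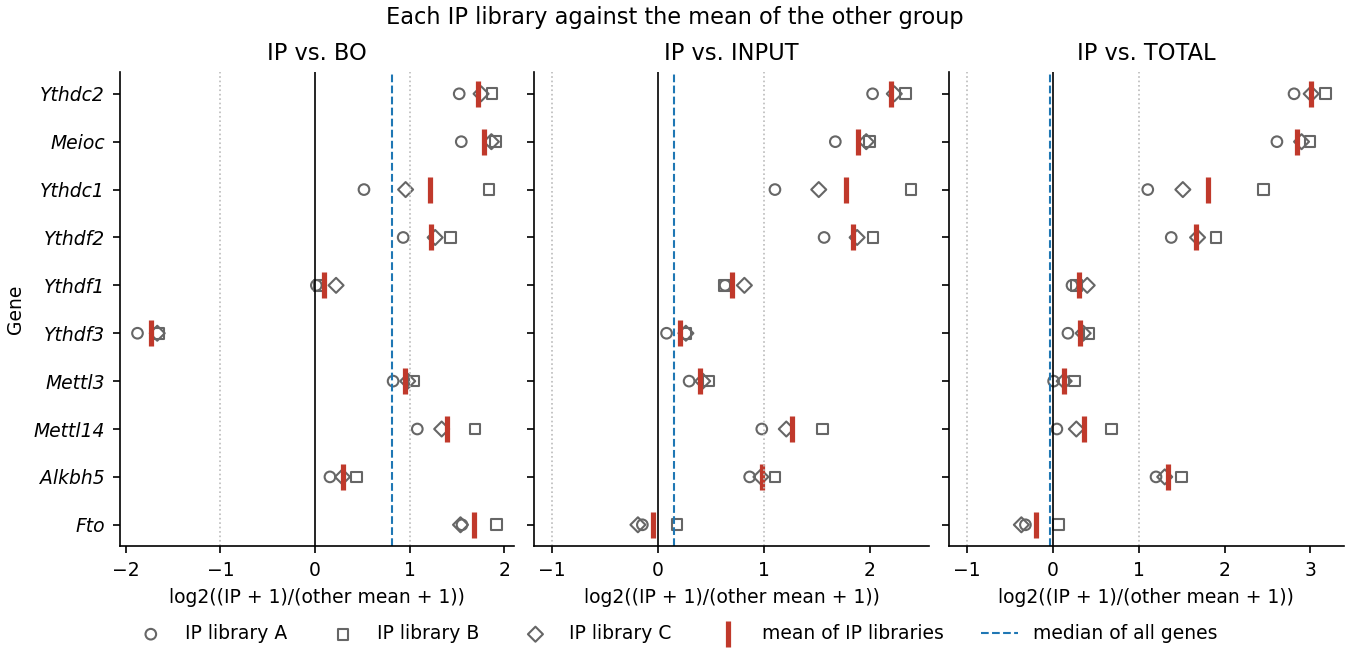
Log2 ratio of each IP library (open symbols; A, B and C) and of the mean of the IP libraries (red bars) over the mean of BO, INPUT or TOTAL for the 10 genes. Dotted lines mark 2-fold, the solid line equality and the dashed line the median of all genes. *Ythdc1* has the widest spread between IP libraries (1.10 to 2.39 against INPUT), and the symbols of *Fto* lie on both sides of 0 against INPUT and TOTAL.

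Across the 10 genes, all 3 IP libraries lay above the mean of the other group for 9 in each comparison. The exceptions were *Ythdf3* against BO, where all 3 were below, and *Fto* against INPUT and TOTAL, where 1 was above. Over all genes the share with all 3 IP libraries above the other mean was 66.5% against BO, 48.2% against INPUT and 42.7% against TOTAL, and the share with all 3 below was 23.8%, 37% and 44.6%. Such counts leave the spread of BO, INPUT and TOTAL out of account.

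In BO vs. INPUT, taken through the shared IP group, the log2 ratios of the 10 RNAs ran from -1.72 to 1.93. *Ythdf3* was past 2-fold higher and *Fto* past 2-fold lower, beside 9.32% and 33.3% of 13578 genes. These counts, 1 of 10 each way, rested on the scaling. Measured from the median gene, *Ythdf3* (2.48), *Alkbh5* (1.23), *Ythdf2* (1.16), *Ythdf1* (1.14), *Ythdc1* (1.11) and *Ythdc2* (1.03) were past 2-fold higher. *Fto* (-1.18) was then past 2-fold lower, and *Meioc* (0.65), *Mettl14* (0.42) and *Mettl3* (-0.01) were within 2-fold. The share of all genes past 2-fold was not computed on that scale. Before this shift, the other readers *Ythdf2* (0.61), *Ythdf1* (0.60), *Ythdc1* (0.56) and *Ythdc2* (0.48) and the eraser *Alkbh5* (0.68) lay together, at percentiles 81.1 to 85.7 of all genes. *Meioc* had 0.11, *Mettl14* -0.12 and *Mettl3* -0.55, the last at the median gene (-0.55). The median of the 10 was 0.52.

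Genes that work with the readers were described by lists of their own. Of 10 other proposed m6A readers, 8 were higher in IP by over 2-fold against BO, 5 against INPUT and 6 against TOTAL, with 0, 0 and 1 lower. The shares of all genes higher were 43.9%, 20.5% and 20.4%, and lower 11.2%, 14.6% and 26.2%. The medians of the list were 1.43, 1.05 and 1.15, where the median gene had 0.81, 0.15 and -0.03. Under each of the other scalings 1 was lower against INPUT, beside 17.9% to 28.2% of all genes. The counts higher were then 3 to 6, 1 to 5 and 3 to 6, beside 18.3% to 34.3%, 9.14% to 16.5% and 9.83% to 21.1%. The highest against INPUT was *Igf2bp3* (1.82) and the lowest *Igf2bp2* (-0.98), both encoding RNA-binding proteins that stabilise mRNA. *Igf2bp2* had a mean of 53.0 in INPUT and 26.3 in IP, in contrast to 244 and 861 for *Igf2bp3*.

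Of 11 genes for the CCR4-NOT deadenylase and the decay helicase UPF1, with which YTHDF2 acts, 5 were higher in IP by over 2-fold against BO, 4 against INPUT and 3 against TOTAL, with 1, 0 and 0 lower. Beside the same shares of all genes (43.9%, 20.5% and 20.4%), the counts higher against BO and TOTAL were near the background. The shares of all genes lower were 11.2%, 14.6% and 26.2%. Under other scalings 1 to 3 of 11 were higher against INPUT, beside 9.14% to 16.5% of all genes. Against BO 2 of 11 were then lower, beside 15.0% to 24.1%. *Cnot2*, encoding a subunit of CCR4-NOT, had the highest ratio against INPUT (1.90) and *Cnot6*, encoding a catalytic subunit, the lowest (0.02). *Cnot6* resembled *Ythdf3*, with a BO mean of 11038 and a log2 ratio of -1.43 in IP vs. BO. Of 5 other RNA methyltransferase genes, 4 were higher against BO, 1 against INPUT and 1 against TOTAL, with 0, 0 and 1 lower, and the last 2 counts were at the background of 20.5% and 20.4%. The count against BO stood beside 43.9% of all genes, and under other scalings it was 0 to 3, beside 18.3% to 34.3%. With summed gene means 0 were higher and 1 lower against INPUT, beside 9.14% and 28.2% of all genes. *Mettl16*, whose enzyme marks U6 snRNA, was highest against INPUT (1.25), and *Trmt112*, encoding a methyltransferase cofactor, lowest (-0.57).

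**Figure D4:**
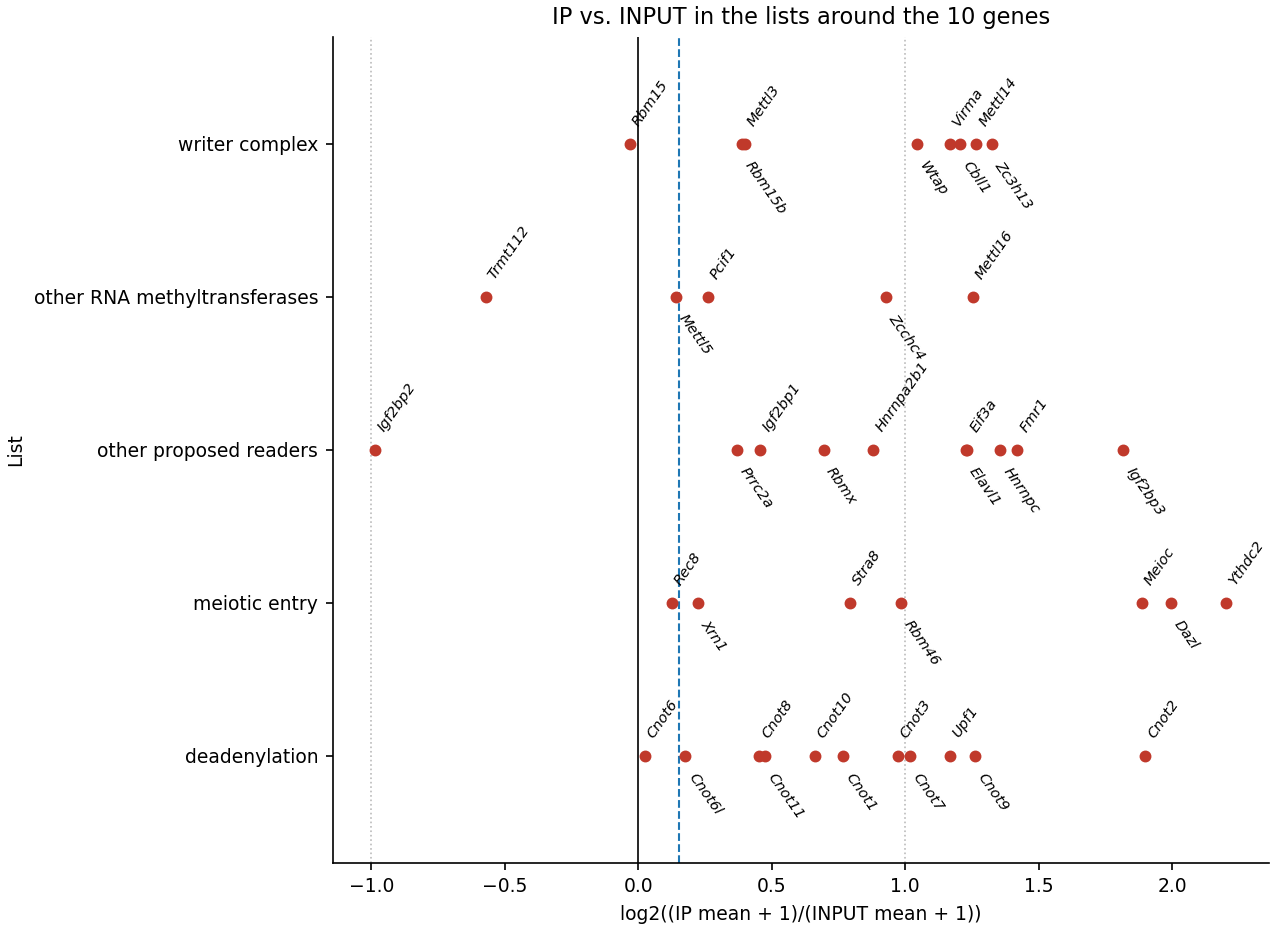
Log2 ratio in IP vs. INPUT of each gene in the lists around the 10 genes, with 2-fold as dotted lines and the median of all genes as a dashed line. *Ythdc2*, *Dazl* and *Meioc* (2.20, 2.00 and 1.89) are at the right of the meiotic entry list, and *Igf2bp2* (-0.98) is at the far left.

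Transcript length was set beside the ratios. The longest transcripts of the 10 genes had a median of 4904.5 nt, against 3426.5 nt over the genes compared in IP vs. INPUT. Spearman's rho between length and log2 ratio was 0.37 across the 10 genes against INPUT, 0.28 against BO and 0.52 against TOTAL. Across all genes it was 0.06 over 14310 genes, -0.37 over 13554 and 0.42 over 14569. These are descriptions across genes that share the same libraries. The relation was thus positive across the 10 genes in each comparison, and across all genes it was positive against TOTAL and negative against BO.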

How the data were processed

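RNA-seq of 12 libraries, 3 each of TOTAL, INPUT, BO and IP, was analysed from the processed files, with groups taken from the sample labels. Mapping to mm10 was done by the authors with STAR v2.6.0c, and normalization with DESeq2 v1.24.0. The deposited signal used here is the mean normalized count of a group, in 3 tables of IP with BO, INPUT or TOTAL that hold genes and repeat loci together. The annotation and the strand setting used for counting are not given in the sources used here. The tables also hold the authors' fold changes with standard errors, statistics and p-values, which were not used. The 4 rows that name no gene (such as unmapped and ambiguous reads) held 21.6% of the summed means in IP, 36.9% in BO, 29.6% in INPUT and 37.1% in TOTAL and were left out. In the deposited repeat table, the signal is a count per subfamily that the authors scaled to the upper quartile of each library.

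The smallest steps of the values showed what 1 read is worth in each library, and the IP reads of each row were solved from the 3 IP means. This was tested on simulated data, where the reads of 100% of 20981 genes were recovered. Log2 ratios used a pseudocount of 1, a filter of 10 on the mean of both group means and a threshold of 2-fold, and were set beside all genes that passed. In simulated means for IP vs. BO, 200 of 200 genes changed 4-fold were past 2-fold, as were 14 unchanged genes among 13972. No test was run on group means without a spread, so there are no p-values. INPUT vs. TOTAL and BO vs. INPUT were taken through the shared IP group, so a constant between the tables remains in them. Symbols were matched to GENCODE M21 for 20701 of 20981 genes, 19888 of them directly, which gave positions and transcript lengths. Older symbols came from the RefSeq gene table. Python 3.11.15 with pandas 2.3.3, numpy 2.4.6 and matplotlib 3.10.9 was used.

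All 10 genes are named, as are every gene of the meiotic entry list, the highest and lowest in IP vs. INPUT of each other list, and the 3 genes nearest to *Ythdc2* and to *Meioc*. *Cnot6* and *Rbm15* are also given in IP vs. BO and *Spaca1* in all 3 comparisons, choices made after their values were seen. The 10 genes and the lists were chosen with earlier results of these data known. The alternatives were 3 other scalings, pseudocounts of 0.1 and 10, no filter, a filter of 100 and, chosen after seeing the data, each IP library left out and the scalings applied to the lists.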

Additional observations from a re-analysis of the deposited data

How the results depend on the processing

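The choice of scaling, which shifts all ratios of a comparison by a constant, moved the values most. Shifting each comparison so that its median gene was 0 took the genes above 2-fold in IP vs. BO from 6 of 10 to 0, their median log2 ratio from 1.22 to 0.41, and the median in INPUT vs. TOTAL from -0.06 to 0.085. Scaling to the upper quartile gave 3 of 10 in IP vs. BO, where the median became 0.59, and medians of 0.77 in IP vs. INPUT and 0.16 in INPUT vs. TOTAL. Scaling to the summed gene means gave 4 of 10 in each comparison and medians of 0.59 in IP vs. INPUT, 0.33 in IP vs. TOTAL and -0.043 in INPUT vs. TOTAL. Over all genes in IP vs. BO, the shares past 2-fold went from 43.9% higher and 11.2% lower to 34.3% and 15.0% with summed means and 24.0% and 20.6% with the upper quartile. In IP vs. INPUT they went from 20.5% and 14.6% to 9.14% and 28.2% with summed means, and in IP vs. TOTAL from 20.4% and 26.2% to 9.83% and 38.0%. Of 30 ratios (10 genes in 3 comparisons), 6 crossed 2-fold with the median shift, all in IP vs. BO, 4 with summed means and 4 with the upper quartile, and 2, 7 and 3 changed sign. *Ythdc1*, *Ythdc2*, *Ythdf2* and *Meioc* stayed past 2-fold in IP vs. INPUT and IP vs. TOTAL under all 3 scalings. With pseudocounts of 0.1 or 10, no filter or a filter of 100, 0 of the 30 crossed 2-fold or changed sign.

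Leaving out 1 IP library at a time gave between 5 and 7 genes above 2-fold against BO, 5 to 6 against INPUT and 5 against TOTAL. The share of all genes higher moved too, from 40.9% to 45.8%, from 19.1% to 23.0% and from 18.3% to 22.2% over the same fits. The medians ranged from 1.01 to 1.41, from 1.01 to 1.22 and from 0.78 to 0.95. Without library A, *Mettl3* in IP vs. BO and *Alkbh5* in IP vs. INPUT passed 2-fold, and without library B *Ythdc1* in IP vs. BO did not. *Fto* in IP vs. INPUT changed sign without library A and without library C. No paired analysis was possible because the gene values of BO, INPUT and TOTAL are group means and the IP libraries carry no replicate number. For the same reason no library of those groups, BO replicate 3 included, could be left out. Depth limits *Fto*, *Mettl3* and *Mettl14* in BO most, each with at most 823 reads behind its mean.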
